A study of Homo sapiens with 4 samples.

Results

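The genes described here form the NRF2 antioxidant and detoxification programme, a list of 43 genes made of the transcription factor gene NFE2L2, its regulators and partners, and genes whose products make glutathione, reduce thioredoxin, clear reactive aldehydes and quinones, handle heme and iron, or conjugate and export foreign compounds. The members were listed by name as genes of the pathway, with earlier results of these data already known. Of the 43, 40 had a probe set annotated to that gene alone, and 40 of these 40 passed the filter on dim probe sets, out of 15946 genes that did so. PIR and TRIM16L were covered by probe sets that list a further gene, and AKR1B1 was not analysed here.

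Expression was measured on Affymetrix arrays in FBP1-expressing and control cells of the lines MDA-MB231 and Hs578T, 2 established human lines labelled basal-like breast cancer. FBP1 is fructose-1,6-bisphosphatase, an enzyme of glucose synthesis, and the FBP1 cells were stable clones. The groups were MDA-MB231 with FBP1, MDA-MB231 control, Hs578T with FBP1 and Hs578T control, with 1 array each, all from cells harvested during logarithmic growth in medium with serum. The labels do not say how many clones were pooled or what the control cells carried, so a difference between constructs and a difference between clones cannot be told apart. In bulk RNA, a transcript present in fewer cells and one at a lower level per cell cannot be told apart either.

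NRF2, the product of NFE2L2, is a basic leucine zipper transcription factor that pairs with small MAF proteins, MAFG among them, and binds antioxidant response elements in its target genes. In unstressed cells KEAP1 holds NRF2 and presents it to a CUL3 ubiquitin ligase for degradation. Electrophiles and oxidants modify cysteines of KEAP1, and SQSTM1 (p62) can sequester it. The pathway is thus governed largely at the level of NRF2 protein, which arrays do not measure, while its targets are read as transcripts. In many carcinomas the programme is constitutively high.

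Promoter sequence was examined for the members that were lower by at least 1.5-fold with FBP1 in Hs578T. The antioxidant response element core, spelled TGACNNNGC, was looked for on both strands of RefSeq windows (build GRCh38.p14) reaching from 250 bases before to 50 bases after an annotated start. Of 11 such members, 8 matched a window, and 4 of the 8 (50%) had the core in at least 1 window, as did 11 of 31 members with a window (35.5%). Among genes past the filter, 2375 of 12476 with a window had it (19%), and it occurred in 13.3% of all 35116 windows. The letters occurred near a start of GCLM, TXNRD1, EPHX1 and CYP4F11. No match was found in the windows of SRXN1, AKR1C1, AKR1C2 and AKR1C3, which says only that these letters are not in those windows. One window each of GCLM, TXNRD1, EPHX1 and CYP4F11 follows 5′ to 3′ on the gene's strand, with capitals marking the core or its reverse complement. The match in GCLM (chr1:93909381-93909680, minus strand) begins 34 bases before the start. TXNRD1 (chr12:104215529-104215828, plus strand), shown at the first of its starts, has matches 99 and 8 bases before it. The match in EPHX1 (chr1:225825104-225825403, plus strand) lies 78 bases before that start, and 1 of the 3 windows of this gene had the core. In CYP4F11 (chr19:15934818-15935117, minus strand) the match begins 156 bases before the start, and 1 of 2 windows had it.
GCLM: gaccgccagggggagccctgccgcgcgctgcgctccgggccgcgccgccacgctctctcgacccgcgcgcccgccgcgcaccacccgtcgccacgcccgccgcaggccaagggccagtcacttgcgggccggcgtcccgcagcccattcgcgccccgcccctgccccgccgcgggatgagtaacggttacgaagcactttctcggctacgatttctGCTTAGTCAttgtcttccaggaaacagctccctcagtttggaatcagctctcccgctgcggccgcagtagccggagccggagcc
TXNRD1: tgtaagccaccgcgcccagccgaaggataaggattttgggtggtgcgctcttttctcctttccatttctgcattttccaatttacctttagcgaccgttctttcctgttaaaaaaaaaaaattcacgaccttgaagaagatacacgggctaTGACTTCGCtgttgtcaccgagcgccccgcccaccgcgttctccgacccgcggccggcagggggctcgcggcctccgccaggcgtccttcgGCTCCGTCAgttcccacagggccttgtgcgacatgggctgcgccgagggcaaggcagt
EPHX1: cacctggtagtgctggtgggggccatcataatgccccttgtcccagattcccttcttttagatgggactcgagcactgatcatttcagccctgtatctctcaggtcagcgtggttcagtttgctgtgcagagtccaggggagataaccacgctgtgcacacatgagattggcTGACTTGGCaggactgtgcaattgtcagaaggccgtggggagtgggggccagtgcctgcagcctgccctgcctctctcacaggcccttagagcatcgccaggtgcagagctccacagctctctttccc
CYP4F11: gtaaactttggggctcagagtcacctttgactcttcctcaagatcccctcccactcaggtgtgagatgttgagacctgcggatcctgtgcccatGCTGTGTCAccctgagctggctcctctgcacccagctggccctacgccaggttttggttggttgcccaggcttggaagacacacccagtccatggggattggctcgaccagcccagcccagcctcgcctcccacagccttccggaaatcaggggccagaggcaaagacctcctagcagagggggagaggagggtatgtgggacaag

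The arrays were comparable in their overall values. Median log2 expression over all probe sets lay between 7.83 and 7.86 in the 4 arrays. FBP1 itself had log2 levels of 13.07 with FBP1 and 9.83 in control MDA-MB231 cells, and of 13.35 with FBP1 and 6.35 in control Hs578T cells, the FBP1 array being the higher in each line. Of 6 measured basal-like markers, EGFR, CAV1, VIM and CD44 lay between 10.63 and 13.92, KRT14 between 8.45 and 9.62, and KRT5 between 6.80 and 6.93, close to the filter level of 6.16. Of 8 luminal markers 7 passed the filter: the hormone receptor genes ESR1 (6.64 to 6.80) and PGR (5.61 to 6.36) were near or under its level, GATA3, FOXA1 and ERBB2 lay between 8.06 and 9.14, and KRT18 between 12.33 and 12.71. The luminal keratin genes KRT8 and KRT19 lay between 11.99 and 13.10 in MDA-MB231 and between 7.92 and 9.80 in Hs578T. Of 5 measured leukocyte markers, PTPRC and CD3E lay below the filter level on all 4 arrays (4.52 to 6.12), while ITGAM, CD14 and CSF1R lay between 6.69 and 8.30. Of 5 endothelial markers 4 passed the filter, with values of 5.68 to 8.51 over the list. Hs578T cells carried the 6 listed fibroblast markers at higher levels than MDA-MB231 cells, with medians of 10.31 (FBP1) and 10.28 (control), against 6.46 (FBP1) and 7.14 (control) in MDA-MB231.

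The question addressed within each line was how FBP1 expression altered transcript levels. In Hs578T, NRF2 programme genes were mostly lower with FBP1. Of 40 members, 33 lay below the control, as did 7184 of all 15946 genes tested. Lower by at least 1.5-fold were 11 members, a size reached downward by 1.69% of all genes tested. At 2-fold, 5 members were lower, against 0.458% of genes. No member was at least 1.5-fold higher in Hs578T, where 1.39% of genes were. The median log2 change (FBP1 minus control) of the members was −0.307, beside 0.0213 for all 15946 genes. In MDA-MB231 the median was 0.0437, beside −0.0053 for all genes. Of the members 23 lay above and 17 below the control in that line, and of all genes 7683 above and 8256 below. There 0 members were lower and 0 higher by 1.5-fold, against 0.326% and 0.301% of genes. With 1 array per group, neither line's changes could be tested, and all sizes within a line are differences between 2 arrays.

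**Figure D1:**
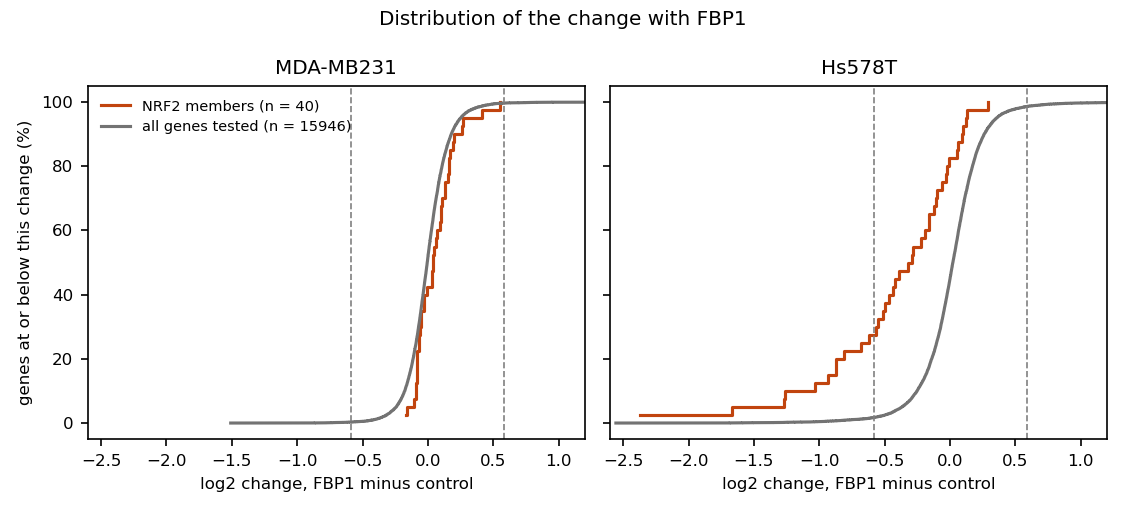
Cumulative share of genes (vertical axis, %) by log2 change, FBP1 minus control (horizontal axis), for the 40 NRF2 members and all 15946 genes tested. Dashed lines mark 1.5-fold. In Hs578T the members' curve lies to the left of that of all genes (medians −0.307 and 0.0213), while in MDA-MB231 no member passes either line.

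The regulators were examined first. NFE2L2 had log2 levels of 11.71 with FBP1 and 11.88 in control MDA-MB231 cells, and of 11.64 with FBP1 and 12.06 in control Hs578T cells. Its changes were −0.17 and −0.42, the same sign in both lines and short of 1.5-fold in each. KEAP1, the repressor, stood at 10.38 (FBP1) and 10.48 (control) in MDA-MB231 and at 10.35 (FBP1) and 10.47 (control) in Hs578T. These changes of −0.09 and −0.12 amount to 1.07-fold and 1.09-fold lower. MAFG, the small MAF partner, was 9.74 with FBP1 and 9.47 in control MDA-MB231 cells, and 9.47 with FBP1 and 9.91 in control Hs578T cells. It therefore moved in opposite directions (0.27 and −0.44), and its 2 other probe sets did likewise, with changes of 0.15 and 0.17 in MDA-MB231 and −0.27 and −0.23 in Hs578T. SQSTM1 changed by 0.13 in MDA-MB231 and −0.57 in Hs578T, which places it just inside the 1.5-fold limit of 0.585. TRIM16, a tripartite motif protein gene, differed little (−0.11 and 0.09), whereas the probe set that lists both TRIM16 and TRIM16L changed by −0.04 and −0.44. The probe set listing PIR and the read-through PIR-FIGF changed by 0.05 and 0.18.

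**Figure D2:**
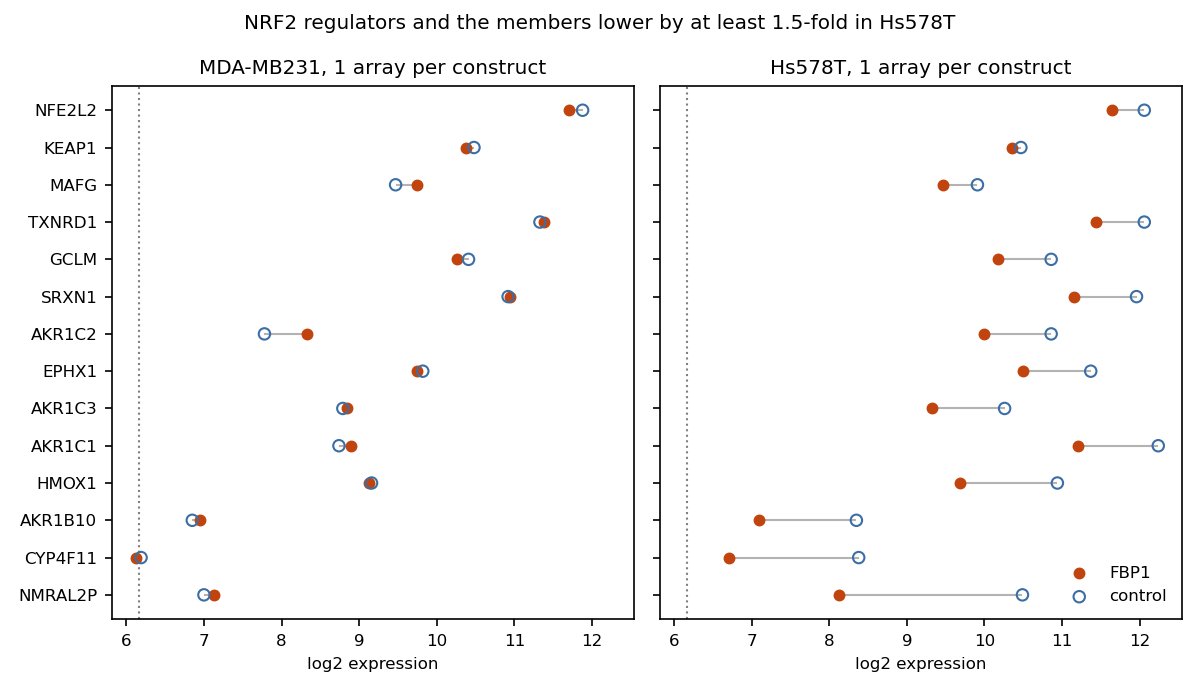
Log2 expression (horizontal axis) of NFE2L2, KEAP1, MAFG and the 11 members at least 1.5-fold lower with FBP1 in Hs578T, in FBP1 (filled) and control (open) cells of each line. Each point is 1 array, and the dotted line is the filter level of 6.16. In Hs578T the FBP1 points of the 11 members lie left of the control points because they were chosen so, down to −2.37 for NMRAL2P. NFE2L2, KEAP1 and MAFG, shown whatever their change, also lie left there (−0.42, −0.12 and −0.44).

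Glutathione genes were lower with FBP1 in Hs578T for 7 of 8 members, with a median change of −0.358, and were evenly divided in MDA-MB231 (median −0.00825, 4 above and 4 below). GCLM and GCLC encode the modifier and catalytic subunits of glutamate-cysteine ligase, the rate-limiting enzyme of glutathione synthesis. GCLM was at 10.18 with FBP1 and 10.86 in control Hs578T cells, a change of −0.68 (1.60-fold lower), and at 10.26 with FBP1 and 10.41 in control MDA-MB231 cells. GCLC changed by −0.55 in Hs578T, just short of 1.5-fold, and by 0.03 in MDA-MB231. The cystine importer gene SLC7A11 changed by −0.51 and the glutathione reductase gene GSR by −0.32 in Hs578T, against −0.06 and 0.17 in MDA-MB231. Steps of cystine uptake, synthesis and recycling were thus each represented among the lower values. Of the enzymes that use glutathione, the microsomal transferase gene MGST1 changed by −0.39, GSTM3 by −0.29 and the lipid peroxidase gene GPX4 by −0.16 in Hs578T. The exception in Hs578T was GPX2, a selenium-dependent peroxidase gene that was dim on all 4 arrays (6.25 to 6.66) and changed by 0.05, and by 0.41 in MDA-MB231.

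Thioredoxin genes were below the control in 5 of 5 cases in Hs578T, with a median change of −0.217, beside 0.0303 in MDA-MB231. SRXN1, which encodes the sulfiredoxin that repairs over-oxidised peroxiredoxins, was at 11.16 with FBP1 and 11.96 in control Hs578T cells (1.75-fold lower) and at 10.95 with FBP1 and 10.92 in control MDA-MB231 cells. TXNRD1, the cytosolic thioredoxin reductase gene, was at 11.44 with FBP1 and 12.06 in control Hs578T cells (1.53-fold lower) and at 11.38 with FBP1 and 11.33 in control MDA-MB231 cells. TXNRD1 was the member nearest to the 1.5-fold limit among those past it. The transcripts of their protein substrates changed less, with log2 changes in Hs578T of −0.10 for TXN and −0.22 for the peroxiredoxin gene PRDX1. OSGIN1, an oxidative stress-induced growth inhibitor gene, changed by −0.19. The enzymes that remove superoxide and hydrogen peroxide directly did not share the size of these changes: SOD1 stood at −0.02, SOD2 at 0.12 and CAT at −0.03 in Hs578T, and at 0.10, 0.16 and −0.07 in MDA-MB231. ME1, the malic enzyme that supplies NADPH, changed by −0.11 in Hs578T and −0.09 in MDA-MB231.

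Of the member groups, the aldo-keto reductase and carbonyl genes, counted with the pseudogene NMRAL2P, had the lowest median change in Hs578T (−0.866). There 5 of 9 were at least 1.5-fold lower, AKR1C1, AKR1C2 and AKR1C3 among them. In MDA-MB231 0 of 9 changed by 1.5-fold (median 0.105). NMRAL2P, a transcribed pseudogene known as an NRF2 target, was at 8.13 with FBP1 and 10.49 in control Hs578T cells (5.15-fold lower), and at 7.13 with FBP1 and 7.0 in control MDA-MB231 cells. Its change in Hs578T held rank 2 of 15946 genes from the lowest. AKR1B10, which reduces aliphatic and aromatic aldehydes and retinal, was at 7.09 with FBP1 and 8.35 in control Hs578T cells (2.4-fold lower) and at 6.95 with FBP1 and 6.85 in control MDA-MB231 cells. With FBP1, its Hs578T level differed from that of MDA-MB231 by only 0.14 on the log2 scale, and both values lay near the filter level. NQO1, the quinone reductase that is the usual marker of NRF2 activity, changed less, by −0.50 in Hs578T and −0.08 in MDA-MB231. It was also among the brightest members, with 13.48 (FBP1) and 13.98 (control) in Hs578T. CBR1, CBR3 and ALDH3A1, which act on carbonyls and aldehydes, changed by −0.16, 0.29 and 0.10 in Hs578T and by 0.04, −0.08 and 0.20 in MDA-MB231. CBR3 had the highest change of the 40 members in Hs578T.

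AKR1C genes lie close together on chromosome 10 and are so similar in sequence that a probe can bind several of them, so their values are uncertain and all 7 of their probe sets are given. These enzymes reduce steroids and lipid aldehydes. The AKR1C1 probe set annotated to the RefSeq transcript (8180376) was at 11.21 with FBP1 and 12.24 in control Hs578T cells (2.04-fold lower) and at 8.89 with FBP1 and 8.74 in control MDA-MB231 cells. A second AKR1C1 probe set (7925918), annotated to a cDNA clone alone, went the other way, at 8.33 with FBP1 and 8.11 in control Hs578T cells and at 7.94 with FBP1 and 7.18 in control MDA-MB231 cells. The probe sets of AKR1C1 thus disagreed in sign in Hs578T, and the mean of both changed by −0.40 there and 0.45 in MDA-MB231. AKR1C2 was at 9.99 with FBP1 and 10.86 in control Hs578T cells (1.82-fold lower) and at 8.33 with FBP1 and 7.78 in control MDA-MB231 cells (1.46-fold higher). AKR1C3, a prostaglandin and androgen reductase gene, was at 9.33 with FBP1 and 10.26 in control Hs578T cells (1.91-fold lower) and at 8.84 with FBP1 and 8.79 in control MDA-MB231 cells. AKR1C2 had the highest change of the 40 members in MDA-MB231. The remaining probe sets were dim, AKR1C4 at 4.88 to 5.20, the pseudogene AKR1C6P at 5.26 to 6.04 and AKR1C8 at 6.44 to 6.58 over the 4 arrays. AKR1C6P changed by 0.78 in MDA-MB231, below the filter level on both arrays. Without AKR1C1, AKR1C2 and AKR1C3, 8 of 37 members were at least 1.5-fold lower in Hs578T.

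**Figure D3:**
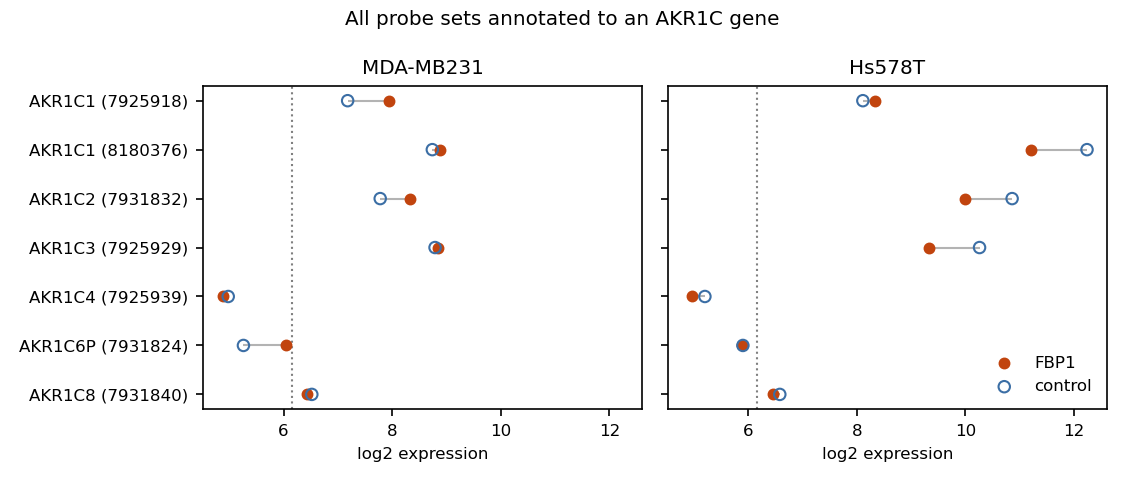
Log2 expression (horizontal axis) of the 7 probe sets annotated to an AKR1C gene, in FBP1 (filled) and control (open) cells of each line, 1 array per point, with the filter level of 6.16 dotted. In Hs578T the probe sets of AKR1C2, AKR1C3 and the brighter of AKR1C1 are lower with FBP1, and AKR1C1 probe set 7925918 is higher by 0.22.

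Among heme and iron genes, HMOX1 encodes the inducible heme oxygenase that opens heme to biliverdin, carbon monoxide and iron. HMOX1 was at 9.69 with FBP1 and 10.94 in control Hs578T cells (2.39-fold lower), and at 9.13 with FBP1 and 9.16 in control MDA-MB231 cells. FTL, the ferritin light chain gene, changed by −0.47 in Hs578T and 0.09 in MDA-MB231. ABCB6, a porphyrin transporter gene, changed by −0.01 and 0.26, the first of these in Hs578T. HMOX1 alone of the 3 thus passed 1.5-fold.

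Conjugation and efflux genes were divided in Hs578T, with 4 of 6 below the control. CYP4F11, a fatty acid hydroxylase gene of the cytochrome P450 family, was at 6.71 with FBP1 and 8.38 in control Hs578T cells (3.17-fold lower) and at 6.12 with FBP1 and 6.19 in control MDA-MB231 cells. The MDA-MB231 values lie at the filter level of 6.16. EPHX1, the microsomal epoxide hydrolase gene, was at 10.50 with FBP1 and 11.37 in control Hs578T cells (1.82-fold lower) and at 9.74 with FBP1 and 9.82 in control MDA-MB231 cells. The exporter genes did not reach this size, with changes in Hs578T of 0.13 for ABCC1, −0.28 for ABCC2 and −0.06 for ABCC3, and in MDA-MB231 of 0.07, 0.10 and 0.16. UGDH, which makes UDP-glucuronate for conjugation, changed by 0.06 in Hs578T and −0.03 in MDA-MB231.

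**Figure D4:**
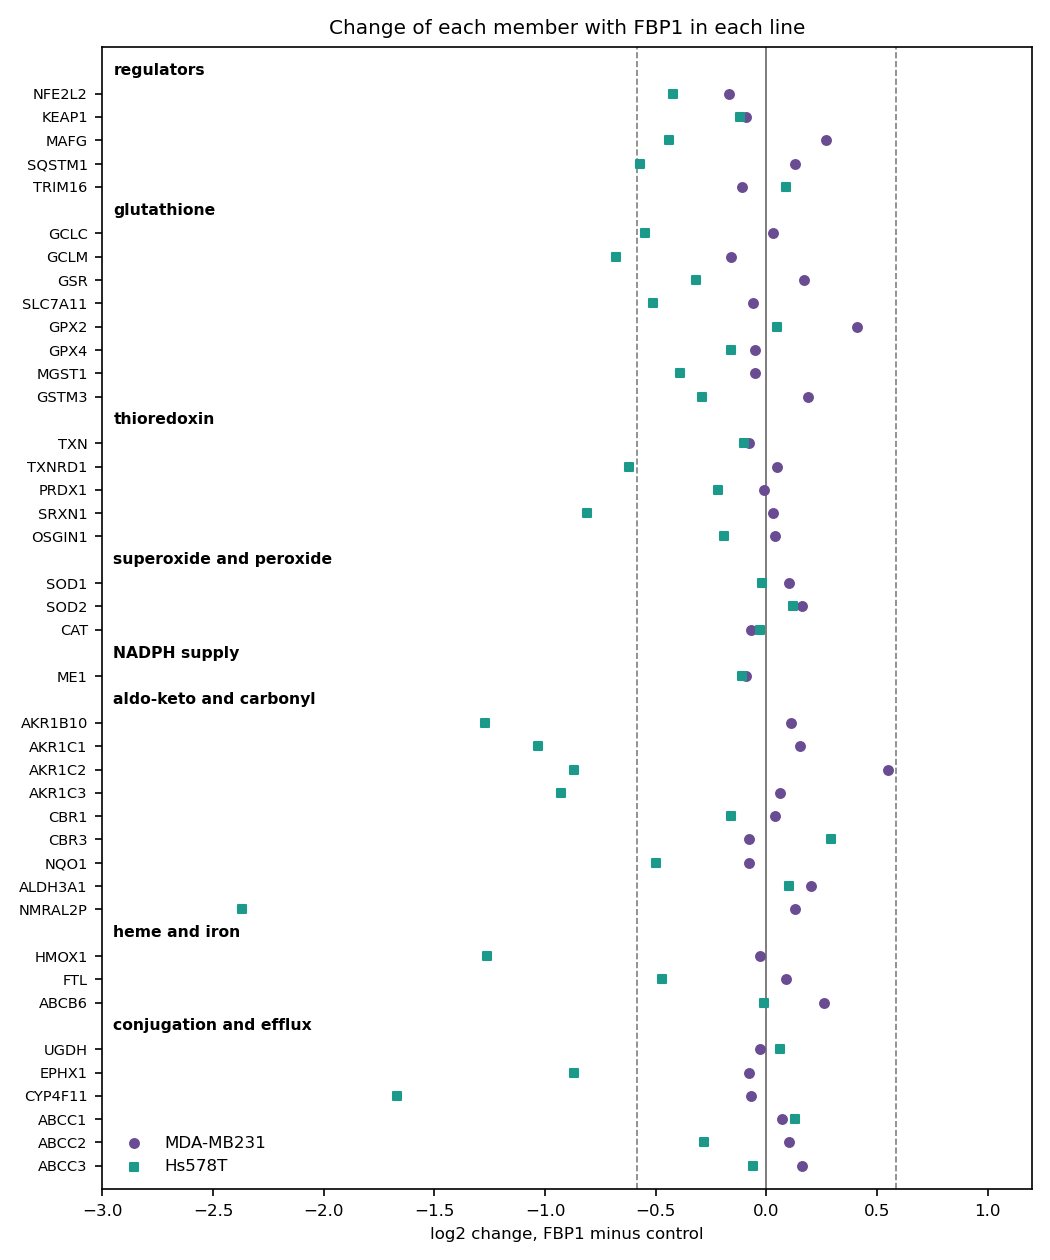
Log2 change with FBP1 (horizontal axis) of each of the 40 members, grouped by role, in MDA-MB231 (circles) and Hs578T (squares). Each point is a difference of 2 arrays, and dashed lines mark 1.5-fold. The 11 squares left of the lower line include 5 of the aldo-keto and carbonyl group, among them the pseudogene NMRAL2P, and 2 thioredoxin genes. The others are HMOX1, GCLM, and CYP4F11 and EPHX1 of the conjugation and efflux group.

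The changes in the lines differed most for NMRAL2P, by 2.50 on the log2 scale (MDA-MB231 minus Hs578T), then for CYP4F11 (1.59), AKR1C2 (1.42), AKR1B10 (1.37), HMOX1 (1.22) and AKR1C1 (1.18). CYP4F11 lay at the filter level on both MDA-MB231 arrays (6.12 and 6.19) and may not exceed background there, so its place in this order is uncertain. NMRAL2P (7.13 with FBP1 and 7.0 in control) and AKR1B10 (6.95 and 6.85) were also dim in MDA-MB231, where a decrease may not show in full. The lines also differed in the change of FBP1 itself, 3.24 in MDA-MB231 and 7.0 in Hs578T. The standard deviation of the change over all genes was 0.163 in MDA-MB231 and 0.255 in Hs578T. No array is left to test a difference between the changes of the lines, because such a difference uses all 4 arrays for 1 value. With the lines as the only replication, limma called 0 of 40 members for a change with FBP1 at an adjusted p under 0.05, and 0% of all genes. Before adjustment 5 of 40 members lay under 0.05 in limma, against 5.14% of all genes (819 of 15946), with mean log2 changes of −0.29 (SE 0.09) for NFE2L2, −0.42 for GCLM, −0.29 for NQO1, −0.87 for CYP4F11 and −0.47 for EPHX1. For each of these genes the limma adjusted p was 0.943. All 5 were below the control in both lines. FBP1 itself was not called in this fit, which has 1 residual degree of freedom, so 0 calls do not show that the members were unaltered.

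The other factor was the line, and most members that differed in level between the lines were lower in MDA-MB231 than in Hs578T. The limma fit with terms for line and construct called 1 of 40 members higher in MDA-MB231, against 21.8% of all genes, and 19 of 40 higher in Hs578T, against 19% of all genes. The 2 arrays of a line differ in construct, so this error includes any FBP1 change that the lines do not share. The largest differences (MDA-MB231 minus Hs578T) were in AKR1C1 (log2 −2.90, SE 0.26, adjusted p = 0.000415), AKR1C2 (−2.37, SE 0.31, adjusted p = 0.00176) and NMRAL2P (−2.25, SE 0.52, adjusted p = 0.0163). With the mean over its probe sets, AKR1C1 differed by −1.78 in place of −2.90, less than AKR1C2 and NMRAL2P. SLC7A11 (−1.65), TRIM16 (−1.59), CYP4F11 (−1.39), UGDH (−1.33), NQO1 (−1.32), HMOX1 (−1.17) and EPHX1 (−1.15) followed, each called. GSTM3 was the member called higher in MDA-MB231 (0.73, SE 0.14, adjusted p = 0.00834). NFE2L2 and KEAP1 were near-equal in level, with differences of −0.05 (SE 0.09, adjusted p = 0.691) and 0.02 (SE 0.10, adjusted p = 0.876). The called members thus lay mostly in 1 direction, 19 higher in Hs578T and 1 in MDA-MB231, and transcripts of the factor and its repressor differed by little. NRF2 protein was not measured. AKR1B10, TXNRD1, GCLC and GCLM were lower in MDA-MB231 by 0.82, 0.40, 0.39 and 0.19 but not called (limma adjusted p = 0.073, 0.0959, 0.0938 and 0.352).

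The gap between the lines was narrower among FBP1 arrays for 28 of 40 members, and for 8407 of all 15946 genes. Of 40 members, 27 were higher in Hs578T than in MDA-MB231 among the FBP1 arrays and 35 among the control arrays. Of all genes, 8537 were higher in Hs578T among the FBP1 arrays and 7827 among the control arrays. The median difference (MDA-MB231 minus Hs578T) was −0.236 in FBP1 arrays and −0.596 in control arrays, beside −0.0305 and 0.00655 for all genes tested. NMRAL2P differed by −1.0 in FBP1 arrays and −3.50 in control arrays. HMOX1 differed by −0.56 in FBP1 arrays and −1.78 in control arrays, and SRXN1 by −0.20 and −1.04. For TXNRD1 and GCLM the difference was −0.07 and 0.07 in FBP1 arrays, against −0.74 and −0.45 in control arrays. UGDH, TRIM16 and ME1 kept differences of −1.38, −1.68 and −0.67 in FBP1 arrays, beside −1.29, −1.49 and −0.69 in control arrays. Some members that were high in the Hs578T control thus lay closer to the MDA-MB231 level in the FBP1 arrays, and others did not. Of the 35 members higher in the Hs578T control, 29 (82.9%) were below it in Hs578T with FBP1, and of 7827 such genes in all, 55%. These shares and the gap in control arrays use the same Hs578T control array, and a high value on that array would enter both.

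**Figure D5:**
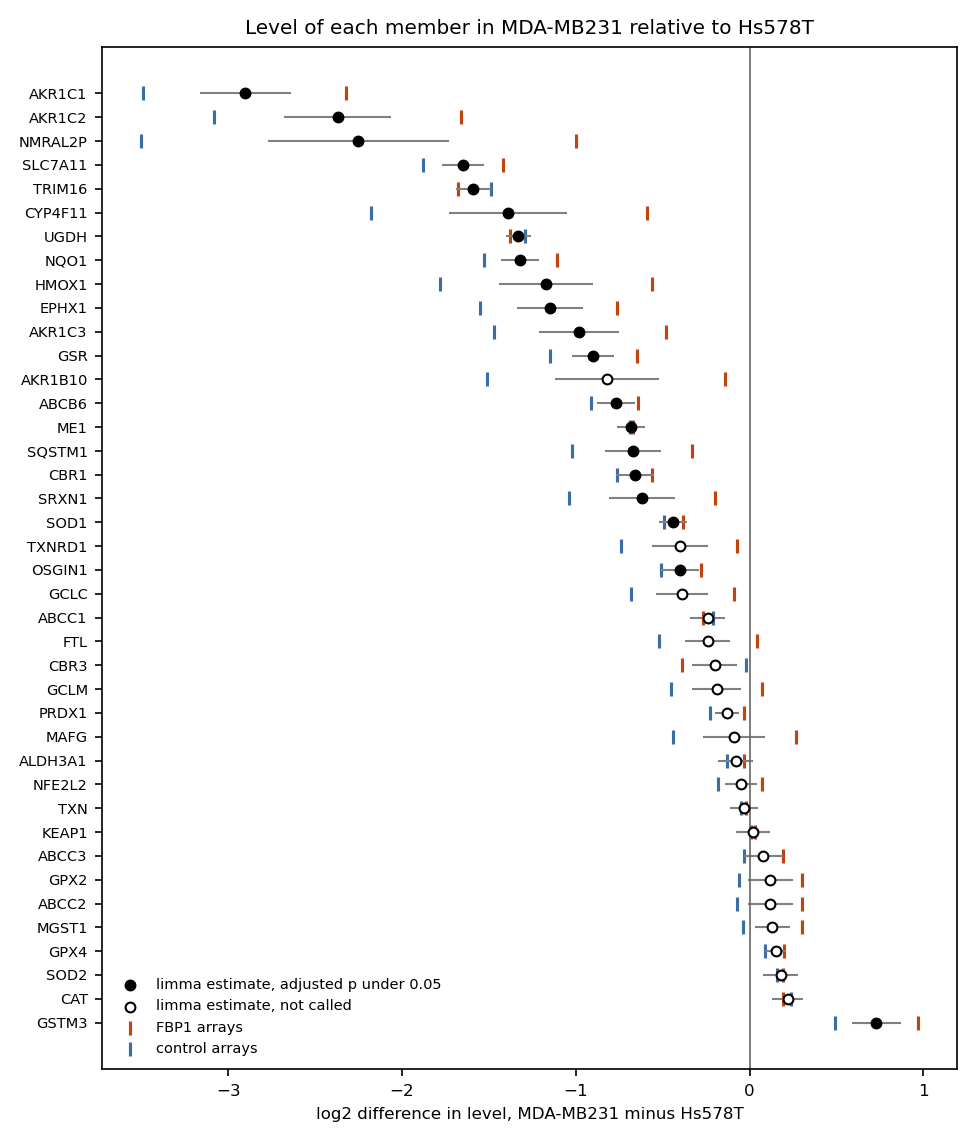
Difference in log2 level, MDA-MB231 minus Hs578T (horizontal axis), of the 40 members, as the limma estimate with its standard error (circles, filled where adjusted p was under 0.05) and separately in FBP1 and control arrays (ticks). The members' median difference was −0.236 in FBP1 arrays and −0.596 in control arrays, beside −0.0305 and 0.00655 for all genes tested. The ticks lie farthest apart for NMRAL2P (−1.0 in FBP1 and −3.50 in control arrays). The control tick lies left of the FBP1 tick wherever the Hs578T change was below the MDA-MB231 change, so this order restates those changes. This order includes members whose gap was wider in FBP1 arrays, such as GSTM3 (0.97 in FBP1 and 0.49 in control arrays).

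Genes of the same pathways that are not members gave few changes of this size. Of 101 such genes, 85 passed the filter. Members and these lists were chosen with earlier results of these data known, so the contrast between them is not independent of those results. In Hs578T 59 of these 85 genes lay below the control, as did 7184 of all 15946 genes. The median change of the 85 there was −0.0706, and 3 were at least 1.5-fold lower and 2 higher, against 1.69% and 1.39% of all genes. The lower ones were TXNIP, the thioredoxin-binding inhibitor (−2.37), AKR1E2 (−0.85) and CHAC1, which degrades glutathione (−0.59), and the higher ones were the retinaldehyde dehydrogenase gene ALDH1A3 (0.71) and the efflux transporter gene ABCG2 (0.59). In MDA-MB231 TXNIP alone passed 1.5-fold (−0.59), and the median was 0.0433. The other regulators, among them CUL3, BACH1 and MAFF, had a median of 0.0088 over 11 genes in Hs578T, and 0 passed 1.5-fold in either line. Heme and iron genes beside the members were below the control in 9 of 10 cases in Hs578T, where 7184 of all 15946 genes were. None of these heme and iron genes passed 1.5-fold there, and their median was −0.0492. Between the lines, limma called 26 of the 85 higher in MDA-MB231 and 29 higher in Hs578T, against 21.8% and 19% of all genes. Of the cell type markers, the fibroblast gene FAP changed by −1.34 in Hs578T and the basal keratin gene KRT14 by 0.77. The fibroblast list as a whole had a median change of −0.131 there, with 4 of 6 below the control, and its part in the members' changes was not tested.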

How the data were processed

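RNA from 4 cell groups was measured on 1 Affymetrix array each. The table deposited by the authors holds log2 expression values for 33297 probe sets, a scale taken from the values (2.4 to 14.81). Affymetrix Expression Console 1.1.2800.28061 was used, per the submitters' processing notes, and no source used here states the normalization. Arrays have near-equal medians, so a change in total RNA would be hidden.

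Platform annotation gave a single gene to 19460 probe sets, more than 1 to 1754 and no gene to 12083. The probe set with the highest mean over 4 arrays stood for each gene, and genes dimmer on average than the 25th percentile over probe sets (6.16) were dropped. Within a line, changes are FBP1 minus control with no test, counted at 1.5-fold (0.585) and 2-fold. Over both lines, limma 3.58.1 (R 4.3.3) fitted line and construct across all 15946 genes with an intensity trend, 1 residual and 5.04 prior degrees of freedom, and Benjamini-Hochberg adjustment at 0.05. The line pairs each FBP1 array with its control. The fit was run on simulated data with the same FBP1 change in both lines and a single noise level. Changes that differ between the lines were therefore not tried. Members and gene lists were chosen with earlier results of these data known. Named members are those past 1.5-fold in either line and NFE2L2, KEAP1 and MAFG, with the rest by group. Alternatives covered the filter, normalization, averaging of probe sets, the variance prior, the model terms and the size threshold. The number of arrays limits precision.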

Additional observations from a re-analysis of the deposited data

Results flagged for a closer look

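MAFG moved in opposite directions with FBP1, by 0.27 in MDA-MB231 and by −0.44 in Hs578T, with 1 array per group in each line, and the difference was not tested. AKR1C2 likewise changed by 0.55 in MDA-MB231 and −0.87 in Hs578T, and that difference was not tested either. Both were singled out because the change was at least 1.2-fold in each line with opposite sign. An AKR1C1 probe set that stood for no gene in the comparisons (7925918) was higher with FBP1 than in the control of MDA-MB231 by 0.75 on the log2 scale, and was singled out for that reason.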

How the results depend on the processing

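Of 40 members, 11 were at least 1.5-fold lower with FBP1 in Hs578T. The count was 5 at 2-fold, 9 of 36 members with probe sets below the 50th percentile left out, 10 with the mean over a gene's probe sets, and 11 after quantile normalization, after median centring and with no filter. It was 8 of 37 without AKR1C genes, an alternative chosen after seeing the data. The other 3 counts by size (higher in Hs578T, lower and higher in MDA-MB231) were 0 under each of these settings but the last, which was run for the first count alone. The members' median change ran from −0.318 to −0.302 in Hs578T and from 0.0377 to 0.0547 in MDA-MB231. The 0 calls of limma for FBP1 over both lines held under all 8 alternatives, also with no cell line term. Members called higher in Hs578T between the lines numbered 13 with a robust prior, 15 with no construct term and 18 or 19 otherwise, and 1 was called higher in MDA-MB231 throughout. SRXN1 was not called between the lines after quantile normalization (−0.65) or median centring (−0.64). Averaging moved the AKR1C1 change to −0.40 in Hs578T and to 0.45 in MDA-MB231. Leaving out a replicate was not possible with 1 array per group. No paired analysis beyond the line term was possible because each line and construct has 1 array. Members with levels near 6.16, such as CYP4F11 and AKR1B10 in MDA-MB231, can show little decrease.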
